A study of Rattus norvegicus with 9 samples.

Results

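The genes of cholesterol and fatty acid synthesis, with those of their SREBP and LXR control, were described in rat pancreatic stellate cells on 3 culture surfaces. Members were chosen by gene name from a list of 34, and 32 of them had an array entry that carried their symbol alone, among 14506 genes tested. Hmgcs1 and Srebf1 were not analysed here, because the array's probe table gave neither of them an entry of its own. For Insig1, the only member with more than 1 entry, the brighter was used. No filter on low values was applied, so the 32 are all members that could be measured.

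Stellate cells of the pancreas resemble fibroblasts: at rest they hold vitamin A in fat droplets, and once activated they make the matrix of scars. They were isolated from male Sprague Dawley rats on a density gradient and grown for 72 hours in 10 cm dishes, in medium with serum at 10%. The dishes were uncoated plastic (4 arrays), coated with collagen I, the fibrillar collagen of scar (3 arrays), or coated with Matrigel, a basement membrane extract (2 arrays). Apart from the coating, the labels give the 3 groups the same strain, sex and culture, and each comparison asks what a change of coating does to expression. The labels state neither the age of the rats nor whether arrays came from separate animals or cultures, so a p-value here reflects the spread among these arrays alone, which may be technical.

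Cholesterol is built from acetyl-CoA in a long series of steps, first through mevalonate to farnesyl pyrophosphate, then through squalene and lanosterol to cholesterol. When membrane sterol is low, the transcription factors SREBP-1 and SREBP-2 are carried by SCAP to the Golgi, cut, and sent to the nucleus, where they switch on most of these enzymes. When sterol is plentiful, INSIG proteins hold SCAP and its cargo in the endoplasmic reticulum. The LXR receptors work in the opposite direction: they sense oxysterols and switch on genes that export cholesterol or limit its uptake.

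Values are log2 expression, on which a difference of 1 is a 2-fold change. The array medians lay between 4.08 and 4.18. Vim, Col1a1, Col1a2 and Sparc, markers of stellate cells, lay at 12.09 or more on every array, whereas Gfap, another stellate marker, did not exceed 2.90. Lrat, a further stellate marker, lay between 2.25 and 5.85. The 10 stellate markers together averaged 9.67 to 9.73 on the plastic arrays, 9.41 to 9.65 on collagen I and 9.07 to 9.18 on Matrigel. Of these, Des (desmin) fell on Matrigel by 1.93 and on collagen I by 0.77, and Col3a1 fell on Matrigel by 0.93 (limma adjusted p = 0.00021, 0.0058 and 0.0238). Acta2 differed by -1.23 on Matrigel and Lrat by -1.67 on collagen I, and neither passed (limma adjusted p = 0.0892 and 0.168). Both Matrigel arrays lay below all 4 plastic arrays for 7 of the 10 markers and above them for 0, where 16.6% and 13.6% of all genes did so. On collagen I, 4 of the 10 differences were below 0 and 6 above. The part of these marker differences in the members' differences was not tested. A list of 13 macrophage markers averaged 6.54 to 7.81 on the plastic arrays, 6.58 to 7.54 on collagen I and 8.03 to 8.39 on Matrigel. A list of 7 islet markers averaged 5.44 to 6.66, 5.94 to 6.87 and 7.24 to 8.31 on the same surfaces, and one of 8 acinar markers 3.61 to 3.93, 3.61 to 4.08 and 4.43 to 5.30. The 7 adipocyte markers averaged 3.41 to 3.69, 3.41 to 3.63 and 4.22 to 4.47. On Matrigel 3 adipocyte markers rose, Cidec, Fabp4 and Plin1 (limma adjusted p under 0.05). So did 4 islet and 2 acinar markers, where 4.52% of all genes rose. The largest differences were 3.78, 3.46 and 3.80 in the adipocyte, islet and acinar lists, while the adipocyte median was 0.19. On collagen I 0 markers of these 3 lists passed. The arrays read whole cultures, in which fewer cells of a type and less RNA per cell cannot be told apart.

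On Matrigel, genes of cholesterol synthesis were lower than on plastic: 10 of 17 synthesis enzymes fell and 0 rose, as did Insig1 and Acly, while the LXR and efflux genes did not pass in either direction. Over all 32 members 12 fell (37.5%) and 0 rose, where 5.85% of all genes tested fell and 4.52% rose (limma, Benjamini-Hochberg adjusted p under 0.05). The median difference of the 32 members was -0.24 and that of the 17 synthesis enzymes -0.57, against -0.01 over all genes. Both Matrigel arrays lay below all 4 plastic arrays for 13 of the 17 enzymes and 16 of the 32 members, where 16.6% of all genes did so. The count of 12 members dropped to 3 without Matrigel replicate 1, 6 without plastic replicate 1, and 7 without plastic replicate 2 or 4. With only the plastic arrays that share a title letter (A or S) with a Matrigel array, an alternative chosen after seeing the data, 2 members passed, Msmo1 and Fdft1. With the title letter as a fixed replicate block in the fit, 8 members passed, 5 lower (Msmo1, Fdft1, Sc5d, Tm7sf2 and Insig1) and 3 higher (Acaca, Fasn and Abca1). The labels do not state what the letter means.

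**Figure D1:**
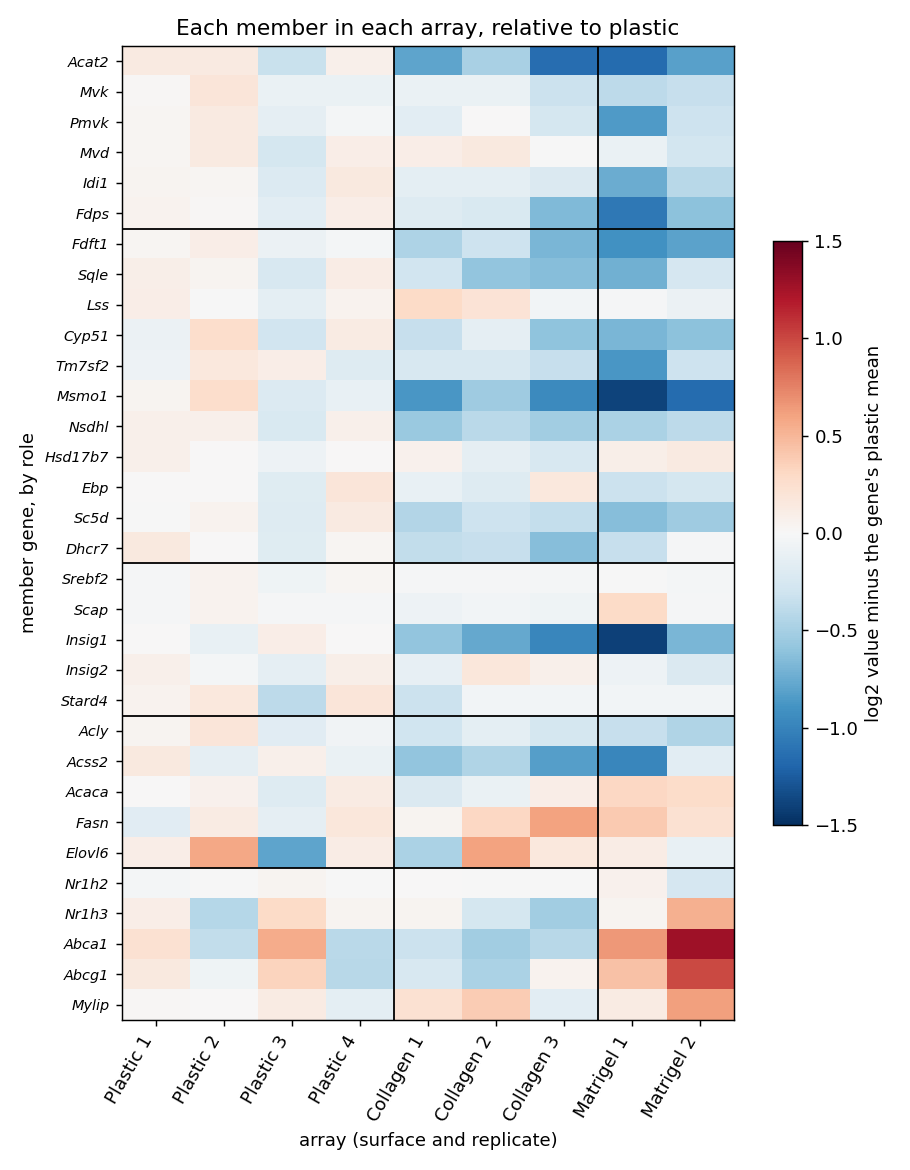
Each member (rows, grouped by role with black lines) in each array (columns), as the log2 value minus that gene's mean over the 4 plastic arrays; blue is lower and red higher. The blue block in the upper rows covers most sterol synthesis enzymes and Insig1 on Matrigel and collagen I; the Matrigel arrays of Msmo1 stood at 7.85 and 8.08 against a plastic mean of 9.23.

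On collagen I, too, genes of cholesterol synthesis were lower than on plastic, with Acat2, Msmo1 and Insig1 furthest below it. There 6 of the 32 members fell (18.8%) and 0 rose, 5 of the 17 synthesis enzymes among them, where 3.17% of all genes fell and 2.95% rose. The median difference from plastic was -0.20 for the 32 members, -0.36 for the 17 enzymes and 0.00 for all genes. All 3 collagen arrays lay below all 4 plastic arrays for 12 of the 32 members, where 9.20% of all genes did so. This comparison uses the same plastic arrays as the one for Matrigel, so the falls on the coatings are not independent of each other. The count of 6 members dropped to 1 without collagen replicate 1 or 3, to 2 without plastic replicate 1 or 2, and to 3 without plastic replicate 4. With only the plastic arrays of title letters P and Z, an alternative chosen after seeing the data, Nsdhl and Sc5d passed. With only those of letters A and S, 0 did. With the title letter as a fixed replicate block in the fit, 5 members passed, all lower: Acat2, Fdft1, Msmo1, Nsdhl and Sc5d.

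**Figure D2:**
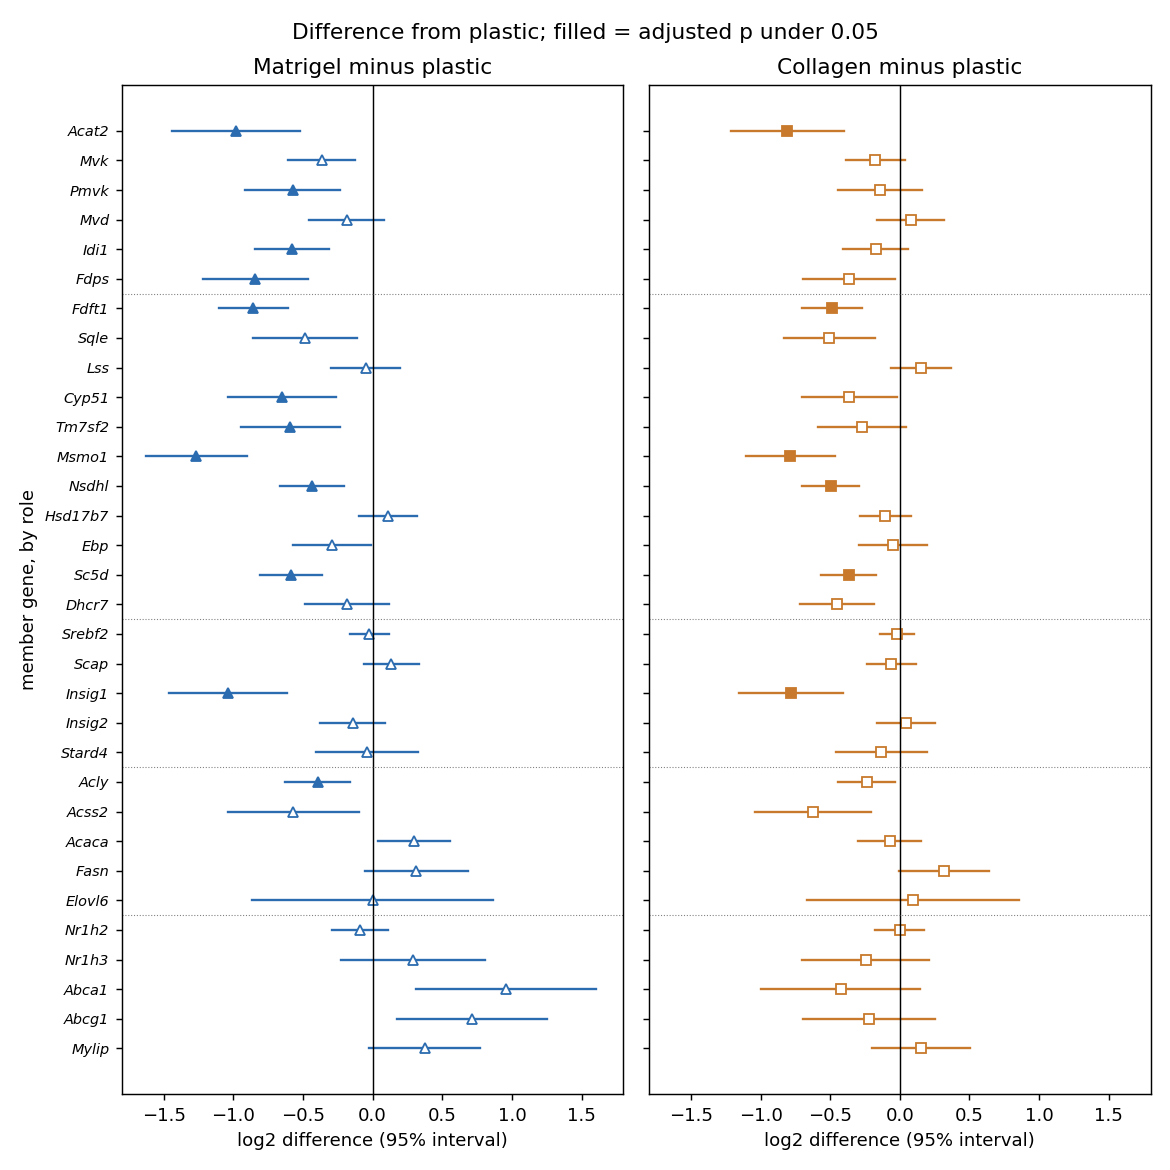
Log2 difference from plastic for each of the 32 members, Matrigel on the left and collagen I on the right, with 95% intervals from the limma fit; filled symbols passed at an adjusted p under 0.05 and dotted lines part the role groups. On the left 12 symbols are filled and on the right 6, all of them left of 0.

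The first enzymes, from acetyl-CoA to farnesyl pyrophosphate, are the mevalonate arm, of which 4 of 6 measured members fell on Matrigel and 1 on collagen I. Acat2, the thiolase that joins 2 molecules of acetyl-CoA in the cytosol, stood at 8.59, 8.58, 8.11 and 8.52 on plastic, 7.66, 7.96 and 7.30 on collagen I, and 7.30 and 7.64 on Matrigel. No array on either coating reached the lowest plastic array. Acat2 fell 1.97-fold on Matrigel, by 0.98 ± 0.20 on the log2 scale (SE; limma adjusted p = 0.0174), and 1.75-fold on collagen I, by 0.81 ± 0.18 (adjusted p = 0.0323). Fdps, which makes farnesyl pyrophosphate, stood at 8.77, 8.74, 8.56 and 8.82 on plastic, 8.52, 8.50 and 8.06 on collagen I, and 7.66 and 8.11 on Matrigel. It fell by 0.84 ± 0.16 on Matrigel (adjusted p = 0.0145). On collagen I its difference of -0.36 ± 0.15 did not pass (adjusted p = 0.217), although all 3 arrays lay below those on plastic.

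Idi1, the isomerase that balances the pathway's isoprene units, stood at 7.66, 7.65, 7.42 and 7.76 on plastic, 7.47, 7.47 and 7.40 on collagen I, and 6.88 and 7.21 on Matrigel. It fell by 0.58 ± 0.12 on Matrigel (limma adjusted p = 0.0167), where its groups did not overlap. Pmvk, the phosphomevalonate kinase, stood at 6.18, 6.29, 6.02 and 6.12 on plastic, 5.999, 6.16 and 5.89 on collagen I, and 5.31 and 5.85 on Matrigel. It fell by 0.57 ± 0.15 on Matrigel (adjusted p = 0.0450). The mevalonate kinase Mvk and the decarboxylase Mvd did not pass, with differences of -0.37 ± 0.10 (adjusted p = 0.0617) and -0.19 ± 0.12 (adjusted p = 0.404). On collagen I the differences of Mvk, Pmvk, Mvd and Idi1 lay between -0.18 and 0.08. In the mevalonate arm all 4 Matrigel calls were lost without Matrigel replicate 1 (adjusted p from 0.111 to 0.258), where Pmvk differed by -0.30. Acat2 also missed the threshold without plastic replicate 1 (adjusted p = 0.0508), and Pmvk without any array but Matrigel replicate 2 (adjusted p from 0.0525 to 0.258). On collagen I Acat2 did not pass when collagen replicate 1 or 3, or plastic replicate 1, 2 or 4, was left out (adjusted p from 0.0832 to 0.0987).

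From squalene to cholesterol, 6 of 11 measured enzymes fell on Matrigel and 4 on collagen I. The largest difference was that of Msmo1, the oxidase that starts removal of the methyl groups at carbon 4 of the sterol ring. It stood at 9.27, 9.495, 9.03 and 9.12 on plastic, 8.36, 8.70 and 8.27 on collagen I, and 7.85 and 8.08 on Matrigel. The 3 surfaces did not overlap, with plastic highest and Matrigel lowest. Msmo1 fell 2.41-fold on Matrigel (log2 difference -1.27 ± 0.16, SE; limma adjusted p = 0.00230) and 1.73-fold on collagen I (-0.79 ± 0.14; adjusted p = 0.0125). Its mean was 9.23 ± 0.20 on the 4 plastic arrays, 8.44 ± 0.23 on the 3 collagen arrays and 7.96 ± 0.17 on the 2 Matrigel arrays (SD). Its Matrigel call held under each alternative run, with differences from -1.38 to -1.15.

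Fdft1, squalene synthase, which commits farnesyl pyrophosphate to sterols, stood at 8.39, 8.46, 8.27 and 8.33 on plastic, 7.90, 8.05 and 7.67 on collagen I, and 7.46 and 7.55 on Matrigel. Like Msmo1 it was ordered plastic, collagen I, Matrigel with no overlap. Of all genes, 16.4% had both Matrigel arrays below all collagen arrays, and Fdft1 did not pass between the coatings (limma adjusted p = 0.142). It fell 1.81-fold on Matrigel (-0.86 ± 0.11; limma adjusted p = 0.00239) and 1.40-fold on collagen I (-0.49 ± 0.10; adjusted p = 0.0196). Sc5d, which adds the double bond at carbon 5 late in the pathway, stood at 8.09, 8.15, 7.90 and 8.23 on plastic, 7.65, 7.79 and 7.74 on collagen I, and 7.46 and 7.56 on Matrigel. It fell by 0.59 ± 0.10 on Matrigel (adjusted p = 0.00743) and by 0.37 ± 0.09 on collagen I (adjusted p = 0.0419). Nsdhl, the dehydrogenase that acts after Msmo1 in the removal of methyl groups, stood at 7.64, 7.65, 7.35 and 7.64 on plastic, 7.01, 7.16 and 7.05 on collagen I, and 7.09 and 7.18 on Matrigel. It fell by similar amounts on each coating, 0.44 ± 0.10 on Matrigel (adjusted p = 0.0297) and 0.50 ± 0.09 on collagen I (adjusted p = 0.0133).

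Cyp51, the lanosterol demethylase, and Tm7sf2, a sterol reductase, fell on Matrigel by 0.65 ± 0.17 and 0.59 ± 0.16 (limma adjusted p = 0.0457 and 0.0471). On collagen I they differed by -0.36 and -0.27 and did not pass (adjusted p = 0.234 and 0.336). The Matrigel call of Cyp51 was lost after re-centring the arrays on their medians, after a second quantile normalization and with the title letter as a fixed replicate block. Both Matrigel calls were lost with array weights and with only the compared surfaces in the fit. The other 5 enzymes after squalene did not pass on either coating. Sqle, squalene epoxidase, a rate-limiting step, stood at 8.05, 8.001, 7.72 and 8.07 on plastic, 7.68, 7.37 and 7.32 on collagen I, and 7.24 and 7.71 on Matrigel. Each coated array lay below each plastic array, with differences of -0.49 ± 0.16 on Matrigel (adjusted p = 0.105) and -0.50 ± 0.14 on collagen I (adjusted p = 0.0866). Dhcr7, which carries out a last reduction to cholesterol, differed by -0.18 on Matrigel and -0.45 on collagen I (adjusted p = 0.470 and 0.0614), and Ebp, the sterol isomerase, by -0.29 and -0.05 (adjusted p = 0.187 and 0.866).

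Lss, which closes squalene epoxide into lanosterol between Sqle and Cyp51, averaged 7.67 ± 0.11 on the 4 plastic arrays, 7.82 ± 0.17 on the 3 collagen arrays and 7.62 ± 0.05 on the 2 Matrigel arrays (SD). Its 95% intervals, -0.30 to 0.19 for Matrigel and -0.06 to 0.37 for collagen I, leave out a fall the size of that of Fdft1. Hsd17b7, the keto reductase that works with Msmo1 and Nsdhl, averaged 6.51 ± 0.06, 6.41 ± 0.15 and 6.62 ± 0.03 on plastic, collagen I and Matrigel. Its interval on Matrigel, -0.10 to 0.32, leaves out a fall the size of that of Nsdhl. Thus enzymes of neighbouring steps did not share 1 size of difference.

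Among these enzymes several calls rested on few arrays. On Matrigel, Sc5d, Nsdhl, Cyp51 and Tm7sf2 missed the threshold without Matrigel replicate 1 (limma adjusted p from 0.0615 to 0.271), where Tm7sf2 differed by -0.31. Nsdhl and Cyp51 also missed it without Matrigel replicate 2 or plastic replicate 1, 2 or 4, Cyp51 without collagen replicate 1, and Tm7sf2 without any collagen or plastic array (adjusted p from 0.0540 to 0.271). On collagen I, Msmo1 and Nsdhl missed it without collagen replicate 1 or 3 (adjusted p from 0.0510 to 0.0530). Fdft1 missed it there when collagen replicate 1, plastic replicate 1 or plastic replicate 2 was left out (adjusted p from 0.0538 to 0.0638), and Sc5d without any array but plastic replicate 3 (adjusted p from 0.0577 to 0.129).

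**Figure D3:**
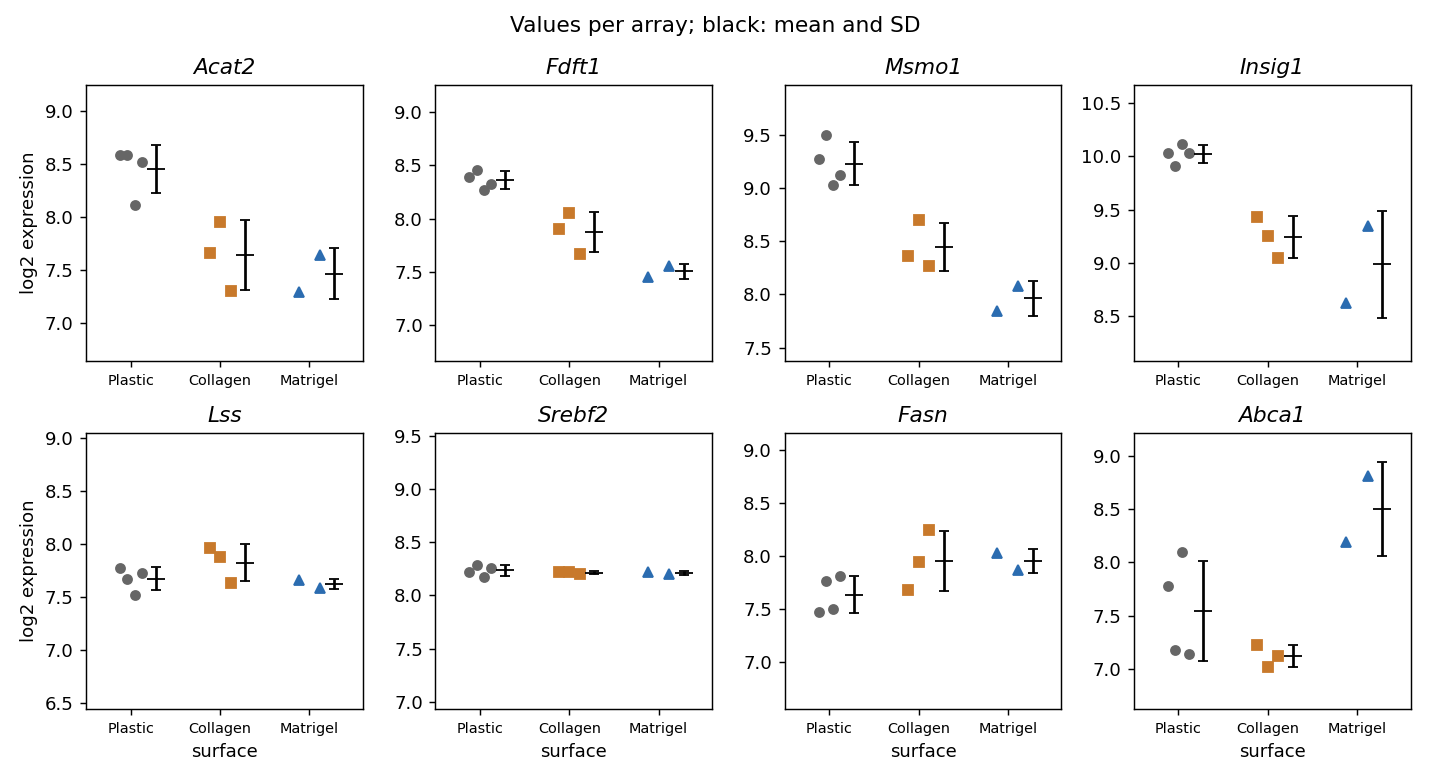
Log2 expression of 8 members in each array on plastic (circles), collagen I (squares) and Matrigel (triangles), with the mean and SD of each surface in black; every panel spans the same number of log2 units, centred on its gene. Fdft1 and Msmo1 step down from plastic to collagen I to Matrigel without overlap, Srebf2 stays between 8.17 and 8.28, and Abca1 is highest on Matrigel at 8.19 and 8.82.

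SREBP-2 acts at promoters together with the factor NF-Y, which binds the box CCAAT, so the DNA upstream of the members was searched on both strands (RefSeq, build GRCr8, a fixed window around each gene's start; 24 of 32 members had an entry). The stretches shown run from base 220 to base 61 before the start in that table. They are shown for Msmo1, with the largest fall, for Nsdhl, with 5 boxes, for Insig1, and for Hsd17b7, which holds boxes but did not pass on either coating. Capitals mark CCAAT or, on the other strand, ATTGG. They lie at chr16:29746893-29747052 (+), chrX:155817140-155817299 (+), chr4:8057830-8057989 (-) and chr13:84722815-84722974 (-).
Msmo1: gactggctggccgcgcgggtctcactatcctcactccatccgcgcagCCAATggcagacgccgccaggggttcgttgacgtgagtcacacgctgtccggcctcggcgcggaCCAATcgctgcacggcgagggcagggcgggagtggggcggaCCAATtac
Nsdhl: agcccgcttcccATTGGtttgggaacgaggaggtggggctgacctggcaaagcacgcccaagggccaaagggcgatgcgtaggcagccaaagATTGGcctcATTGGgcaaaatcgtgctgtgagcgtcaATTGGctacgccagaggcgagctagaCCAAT
Insig1: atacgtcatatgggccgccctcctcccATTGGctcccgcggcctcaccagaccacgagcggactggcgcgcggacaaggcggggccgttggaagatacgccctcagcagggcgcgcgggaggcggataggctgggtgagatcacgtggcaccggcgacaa
Hsd17b7: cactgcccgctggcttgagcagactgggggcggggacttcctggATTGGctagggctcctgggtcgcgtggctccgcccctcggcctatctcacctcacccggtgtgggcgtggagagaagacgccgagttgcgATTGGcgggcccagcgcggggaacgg

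The box CCAAT was found in 17 of the 24 member windows (70.8%) and in 37.5% of all 33469 windows of the table. It was found in 8 of 10 windows of members that fell on Matrigel and in 9 of 14 windows of members that did not. At least 2 boxes were found in 9 of 14 windows of synthesis enzymes (64.3%), against 11.2% of all windows. The core of the sterol response element, TCACNCCAC, was in 0 of the 24 windows and 1.12% of all. A looser form of it chosen after that search, TCACNNCA, which also finds every match of the first, was in 5 of 24 (20.8%) and 14.6% of all: Msmo1, Nsdhl, Sc5d, Hsd17b7 and Srebf2 held it. The LXR element of the DR-4 type, a direct repeat with a spacer, was in 0 of the 24 windows and in 2 of all 33469. These are matches of letters in a fixed window and show no binding.

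In the SREBP control group, 1 of 5 measured members, Insig1, fell on each coating, and the factor and its escort did not pass. Insig1, which retains SCAP and is itself a target of SREBP, stood at 10.03, 9.91, 10.12 and 10.03 on plastic, 9.43, 9.26 and 9.04 on collagen I, and 8.63 and 9.34 on Matrigel. The plastic arrays lay close together and above every coated array, while the Matrigel arrays lay farther apart than any of them. Insig1 fell 2.05-fold on Matrigel (log2 difference -1.04 ± 0.19, SE; limma adjusted p = 0.00987) and 1.72-fold on collagen I (-0.78 ± 0.16; adjusted p = 0.0262). Its second, dimmer array entry differed by -1.06 ± 0.20 on Matrigel and -0.72 ± 0.17 on collagen I (adjusted p = 0.0122 and 0.0493). With the title letter, read here as pairing collagen and plastic arrays, as a fixed replicate block, Insig1 did not pass on collagen I (-0.68, limma adjusted p = 0.0540). It did not pass there either without collagen replicate 2 or 3 or any plastic array (adjusted p from 0.0514 to 0.0989), and without Matrigel replicate 1 its Matrigel difference was -0.68.

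Srebf2, the gene of SREBP-2 itself, stood at 8.22, 8.28, 8.17 and 8.26 on plastic, 8.22, 8.22 and 8.20 on collagen I, and 8.22 and 8.20 on Matrigel. Its 95% intervals, -0.16 to 0.12 on Matrigel and -0.14 to 0.10 on collagen I, are the narrowest of the 32 members. Scap, the escort of SREBP, stood at 7.72, 7.79, 7.72 and 7.72 on plastic, 7.65, 7.69 and 7.67 on collagen I, and 8.02 and 7.72 on Matrigel, and did not pass (limma adjusted p = 0.410 on Matrigel and 0.747 on collagen I). Insig2, a second SCAP retention protein, stood at 7.17, 7.06, 6.96 and 7.17 on plastic, 6.97, 7.26 and 7.17 on collagen I, and 7.01 and 6.88 on Matrigel. Its intervals were -0.38 to 0.09 on Matrigel and -0.16 to 0.25 on collagen I, so that a fall the size of that of Insig1 lies outside both. Stard4, a cytosolic sterol carrier, averaged 4.82 ± 0.26 on plastic and 4.79 on Matrigel and did not pass. Its deposited value was identical on 4 arrays, as was that of Mvk, and 8 members had an identical value on at least 2 arrays.

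Among the 5 enzymes of fatty acid synthesis, 1 fell on Matrigel and 0 passed on collagen I. Acly, which supplies cytosolic acetyl-CoA from citrate, stood at 9.06, 9.21, 8.86 and 8.97 on plastic, 8.73, 8.87 and 8.76 on collagen I, and 8.68 and 8.58 on Matrigel. It fell by 0.40 ± 0.10 on Matrigel (SE; limma adjusted p = 0.0435) and differed by -0.24 ± 0.09 on collagen I (adjusted p = 0.191). Its Matrigel call was lost after re-centring the arrays on their medians, after a second quantile normalization and with array weights. It was also lost with only the compared surfaces in the fit and with the title letter as a fixed replicate block. Acly missed the threshold when any array but plastic replicate 3 was left out (adjusted p from 0.0610 to 0.181). Acss2, which makes acetyl-CoA from acetate, averaged 7.43 ± 0.14 (SD, n = 4), 6.80 ± 0.19 (SD, n = 3) and 6.86 ± 0.57 (SD, n = 2) on plastic, collagen I and Matrigel, and did not pass (adjusted p = 0.133 on Matrigel and 0.0950 on collagen I). Without Matrigel replicate 2 it was lower on Matrigel by -0.97 (adjusted p = 0.0149) and past the threshold on collagen I, where leaving out Matrigel replicate 1 did the same (adjusted p = 0.0188).

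Fasn, the fatty acid synthase, stood at 7.47, 7.76, 7.50 and 7.81 on plastic, 7.68, 7.95 and 8.24 on collagen I, and 8.03 and 7.87 on Matrigel. Its point estimates were above 0 on both coatings, 0.31 ± 0.16 on Matrigel and 0.32 ± 0.14 on collagen I, and neither passed (limma adjusted p = 0.286 and 0.273). Acaca, the acetyl-CoA carboxylase that feeds Fasn, differed by 0.30 ± 0.11 on Matrigel and -0.07 ± 0.10 on collagen I (adjusted p = 0.150 and 0.769). Their 95% intervals on Matrigel, not adjusted for the number of genes, ran from 0.04 to 0.55 for Acaca and from -0.05 to 0.68 for Fasn. With the title letter as a fixed replicate block, Fasn and Acaca passed on Matrigel, higher by 0.49 and 0.41 (limma adjusted p = 0.0359 and 0.0392). Elovl6, which lengthens palmitate, varied most: it ranged from 3.79 to 5.16 on plastic and 4.09 to 5.18 on collagen I, and its interval on Matrigel ran from -0.86 to 0.86.

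In the LXR and efflux group 0 of 5 members passed on either coating. Neither receptor gene passed. Nr1h2, the widely expressed LXR-beta, stood at 7.69, 7.71, 7.75 and 7.71 on plastic, 7.73, 7.71 and 7.71 on collagen I, and 7.78 and 7.47 on Matrigel. Nr1h3, LXR-alpha, stood at 5.59, 5.06, 5.77 and 5.53 on plastic, 5.53, 5.22 and 4.96 on collagen I, and 5.53 and 6.02 on Matrigel, so that all 3 surfaces overlapped; its 95% intervals were wide, -0.23 to 0.81 on Matrigel and -0.70 to 0.21 on collagen I. Abca1, the exporter that loads cholesterol onto apolipoproteins and an LXR target, stood at 7.77, 7.17, 8.10 and 7.14 on plastic, 7.22, 7.02 and 7.12 on collagen I, and 8.19 and 8.82 on Matrigel. Both Matrigel arrays lay above all others, as 13.6% of all genes did relative to plastic. The difference from plastic was 0.96 ± 0.28 (95% interval 0.31 to 1.60, limma adjusted p = 0.0702), which passed without plastic replicate 3 (1.14, adjusted p = 0.0262). It also passed with the title letter as a fixed replicate block.

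Abcg1, a second sterol exporter and LXR target, stood at 5.31, 5.11, 5.50 and 4.75 on plastic, 4.93, 4.69 and 5.22 on collagen I, and 5.61 and 6.15 on Matrigel. Both Matrigel arrays were again the highest, with a difference from plastic of 0.71 ± 0.24 that did not pass (limma adjusted p = 0.1001). Mylip, the LXR-induced ligase that degrades lipoprotein receptors, stood at 5.41, 5.39, 5.52 and 5.24 on plastic, 5.62, 5.77 and 5.23 on collagen I, and 5.52 and 6.01 on Matrigel (adjusted p = 0.237 on Matrigel and 0.678 on collagen I). On collagen I, Abca1 and Abcg1 differed from plastic by -0.42 ± 0.25 and -0.22 ± 0.21 (adjusted p = 0.424 and 0.641).

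On plastic, the arrays with more macrophage marker signal had more of both exporters. Plastic replicates 1 and 3, with macrophage list means of 7.45 and 7.81, had the higher Abca1 (7.77 and 8.10) and Abcg1 (5.31 and 5.50) of the 4. Plastic replicates 2 and 4, with list means of 6.54 and 6.71, had the lower Abca1 (7.17 and 7.14) and Abcg1 (5.11 and 4.75). The Matrigel arrays, with the highest list means of 8.03 and 8.39, had the highest levels of both exporters. The collagen arrays did not follow this order for Abca1: replicate 3, with a list mean of 7.54, had 7.12, while replicates 1 and 2, with list means of 6.58 and 6.62, had 7.22 and 7.02. For Abcg1, collagen replicate 3 was the highest of the collagen arrays at 5.22, against 4.93 and 4.69 in replicates 1 and 2. Of the 13 macrophage markers 2 passed on Matrigel, both higher, where 4.52% of all genes rose, and 0 passed on collagen I. All 13 were above plastic on Matrigel, by a median of 1.13. For 9 of them both Matrigel arrays lay above all 4 plastic arrays, as for 13.6% of all genes. The part of these markers in the exporter levels was not tested.

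**Figure D4:**
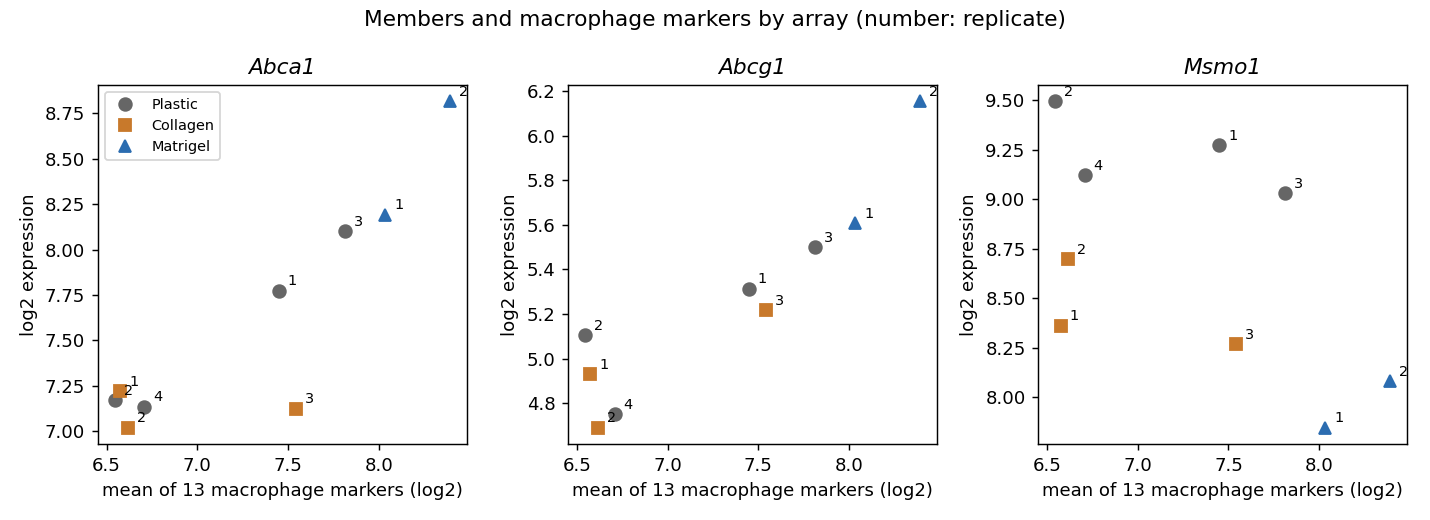
Log2 expression of Abca1, Abcg1 and Msmo1 (vertical axes) against the mean log2 level of 13 macrophage markers (horizontal axis) in each of the 9 arrays, marked by surface and replicate number. Abca1 and Abcg1 are highest in the Matrigel arrays, where the marker mean is 8.03 and 8.39; Msmo1 is lower on all 3 collagen arrays (8.36, 8.70 and 8.27, at marker means of 6.58, 6.62 and 7.54) than on any plastic array.

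The levels of the 17 sterol enzymes and of the macrophage list were also set side by side for each array. Collagen replicates 1 and 2 had macrophage list means of 6.58 and 6.62, within the plastic range, and median deviations of the 17 enzymes from their plastic means of -0.24 and -0.23. Collagen replicate 3 had a list mean of 7.54, also within the plastic range of 6.54 to 7.81, and a median deviation of -0.35. It was the lowest collagen array for 14 of the 17 enzymes, where 33.3% of all genes had it lowest. On plastic, replicate 3, with the highest list mean, was the lowest array for 15 of the 17 enzymes, where 31.1% of all genes had it lowest, by a median of -0.24 from the mean of the other plastic arrays. Insig1 did not share this, since plastic replicate 3 was its highest at 10.12. On Matrigel, replicate 1 was below replicate 2 for 15 of the 17 enzymes, where 44.6% of all genes were. Its macrophage list mean was the lower of the pair. Its adipocyte (4.22 against 4.47) and stellate (9.07 against 9.18) means were lower too. Its islet and acinar means were the higher of the pair (8.31 against 7.24, and 5.30 against 4.43). The median deviations of the 17 enzymes on Matrigel were -0.68 and -0.34. The part of the macrophage, islet or other cell signal in the falls on either coating was not tested.

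Between the coatings, 0 of the 32 members differed (limma, adjusted p under 0.05), where 2.67% of all genes did. At an unadjusted p under 0.05, 8 members differed, as did 16.9% of all genes. Of these, Fdft1, Fdps, Idi1, Msmo1 and Pmvk were lower on Matrigel than on collagen I, with differences from -0.48 to -0.37, and Abca1, Abcg1 and Acaca were higher by 1.38, 0.93 and 0.37. Msmo1 differed by -0.48 (95% interval -0.86 to -0.10; adjusted p = 0.189), whereas Nsdhl differed by 0.06 (-0.18 to 0.30) and Sqle by 0.02 (-0.37 to 0.41). Abca1 lay closest to the threshold, 1.38 ± 0.30 higher on Matrigel (95% interval 0.70 to 2.06; adjusted p = 0.0515), and passed without plastic replicate 3 (adjusted p = 0.0351). The intervals of 28 of the 32 members stayed within 1 log2 unit of 0, and the narrowest was that of Srebf2, -0.15 to 0.15.

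Of 35 further genes of these pathways, 2 fell on Matrigel and 0 rose, and on collagen I 2 fell and 3 rose. The share that fell, 5.71% in each comparison, stood beside 5.85% of all genes on Matrigel and 3.17% on collagen I. Of all genes, 4.52% rose on Matrigel and 2.95% on collagen I. Elovl5, which lengthens polyunsaturated fatty acids, stood at 10.30, 10.35, 10.06 and 10.30 on plastic, 9.78 on each collagen array, and 9.55 and 9.62 on Matrigel. It fell on both coatings, by 0.67 ± 0.09 on Matrigel and 0.47 ± 0.08 on collagen I (limma adjusted p = 0.00271 and 0.00835). The desaturase Fads2 fell on Matrigel by 1.45 ± 0.37 (adjusted p = 0.0436), while its collagen difference of -0.83 did not pass (adjusted p = 0.213).

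On collagen I the lysosomal lipase Lipa, which frees cholesterol from lipoprotein esters, fell by 0.60 ± 0.13 (limma adjusted p = 0.0278). Soat1, which esterifies cholesterol for storage, stood at 9.80, 9.78, 9.45 and 9.83 on plastic and rose to 10.38, 10.34 and 10.24 on collagen I, by 0.60 ± 0.10 (adjusted p = 0.0100). On Matrigel Soat1 stood at 9.83 and 9.68, which overlaps plastic. Ch25h, which makes an oxysterol from cholesterol, was 1.04 ± 0.24 higher on collagen I (adjusted p = 0.0372) and 0.46 ± 0.27 higher on Matrigel, where it did not pass (adjusted p = 0.361). The transporter Abcg4 was dim on plastic and Matrigel, at means of 3.89 and 3.57, and stood at 4.53, 4.58 and 4.88 on collagen I (adjusted p = 0.00420 against plastic and 0.0101 for Matrigel against collagen I). Dim here means under 4.25, the 40th percentile of mean level over all genes tested, and no member had a surface mean below it.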

How the data were processed

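Expression was measured on Affymetrix Rat Gene 1.0 ST arrays. The deposited log2 values were made by the authors with RMA, per the submitters' processing notes; RMA corrects background, sets the arrays to 1 distribution by quantiles and summarises probes. Which program and build were used is not given in the sources used here. Nothing was normalized again. Of 29215 entries, 15310 carried 1 symbol in the array's probe table, 323 several and 13582 none; the entry with the highest mean was kept per gene, giving 14506 genes. The 32 measured members all had their identifier and symbol in a RefSeq gene table (GRCr8). Signal from close paralogs cannot be separated.

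The fit used limma 3.58.1 under R 4.3.3 on all 9 arrays, with a mean for each surface (6 residual degrees of freedom), moderated two-sided tests and Benjamini-Hochberg adjustment over all genes within each comparison; the code was tested on simulated data. The number of arrays limits the precision. Replicates are numbered in accession order. Members, lists and tests were chosen with earlier results of these data known. Values in every array are given for up to 4 members per role group and comparison with the smallest adjusted p among those past 0.05, for Srebf2, Scap, Insig1, Insig2, Nr1h2, Nr1h3, Abca1, Abcg1, Mylip, Fasn and Sqle whatever their values, and up to 6 further pathway genes per comparison. Lss and Hsd17b7 were singled out after their values were seen. Alternatives are in the closing section.

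Titles carry 1 of the letters A, P, S and Z, some of which recur across surfaces. Over genes, which are not independent replicates, same-letter arrays on collagen and plastic deviated together from their means (r of 0.20, 0.23 and 0.27 for A, P and Z). The letter was therefore read as pairing them, although collagen array A had a slightly higher r with plastic array S (0.24). The main fit leaves this pairing out. The SEs, intervals and adjusted p-values for collagen I against plastic are thus unpaired, except where the letter is named as a block. For Matrigel and plastic the values were -0.13 for A and 0.41 for S, and it was not.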

Additional observations from a re-analysis of the deposited data

Results flagged for a closer look

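In the 4 plastic arrays, 3 of the 32 members had a highest or lowest array whose gap to the next, as a share of the whole range, exceeded Dixon's 95% critical value; chance flags about 1 in 20 groups. Acat2 stood at 8.11 in plastic replicate 3, below 8.52, 8.58 and 8.59 in the others (gap over range 0.862). Nsdhl stood at 7.35 in the same array, below 7.64, 7.64 and 7.65 (0.974). Scap stood at 7.79 in plastic replicate 2, above 7.72 in each of the others (0.998).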

How the results depend on the processing

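For Matrigel against plastic, where 12 members were called, 6 were called with only the compared surfaces in the fit, 2 with a minimum of 2-fold, 2 when plastic was limited to letters A and S (added after seeing the data), and from 3 to 11 without each array in turn. For collagen I against plastic, where 6 were called, the counts were 0 with a minimum of 2-fold, 0 when plastic was limited to letters A and S, 2 when it was limited to P and Z (both added after seeing the data), and from 1 to 6 without each array. For Matrigel against collagen I, where 0 were called, 1 member was called, Abca1 higher on Matrigel, after re-centring the arrays on their medians, after a second quantile normalization, after dropping genes under the 40th percentile of mean level, with trend and robust moderation, the title letter as a random replicate block, or with plastic limited to P and Z, and from 0 to 1 without each array. The cause of these changes was not tested. Leaving out a Matrigel array leaves 1, assumed to vary like the other groups.

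With the title letter as a fixed replicate block 8 members were called for Matrigel against plastic, 5 lower and 3 higher (Acaca by 0.41, Fasn by 0.49 and Abca1 by 0.64; limma adjusted p = 0.0392, 0.0359 and 0.0383), 5 for collagen I and 0 between the coatings. As a random replicate block the letter gave 13, 7 and 1. Array weights gave 9, 8 and 0, and the lowest-mean entry per gene 12, 6 and 0. Re-centring the arrays on their medians gave 10, 5 and 1, and a second quantile normalization 10, 6 and 1. In both, Acly and Cyp51 were no longer called on Matrigel. No called member changed direction under any alternative run.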
